A study of Rattus norvegicus with 6 samples.

Results

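The nuclear-encoded subunits of the oxidative phosphorylation system were followed in the renal cortex of rats given TBBC, a phenolic antioxidant. The members are the genes whose rat symbol begins with Nduf (assembly factors named Ndufaf left out), Uqcr, Atp5 or Cox4 to Cox8, together with Sdha, Sdhb, Sdhc, Sdhd, Cyc1 and Cycs. Of 15639 genes that the array's probe accessions named, 78 met this rule, through 141 of 61537 probes. They comprise 32 genes of complex I, 4 of complex II, 8 of complex III, 17 of complex IV, 16 of complex V and the mobile carrier cytochrome c (Cycs). Cyc1, Cox7a1 and Ndufa4l2 had no named probe here. In RefSeq 112 protein-coding symbols meet the rule and 35 of them had no named probe. Counts per complex therefore cover only the genes that were named. Subunits encoded by the mitochondrial genome lie outside the rule. Assignment to a complex follows the symbol.

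All 6 animals were male Sprague-Dawley rats of the stock Crl:CD(SD), bought at 5 weeks of age and kept on a basal diet. Corn oil alone went to the 3 rats of the vehicle group. The other 3 were dosed at 300 mg/kg/day with TBBC, the 4,4'-thiobis derivative of 6-tert-butyl-m-cresol, and in both groups dosing lasted 4 weeks. One-colour (Cy3) Agilent arrays were hybridised with renal cortex RNA, 1 array per rat, and the design text calls the replicates biological. The question is which transcripts differ between TBBC and vehicle.

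The respiratory chain lies in the inner mitochondrial membrane. Complex I oxidises NADH, complex II oxidises succinate, and both pass electrons through a quinone to complex III, then through cytochrome c to complex IV, which reduces oxygen. Complexes I, III and IV pump protons, and complex V, the ATP synthase, makes ATP as protons flow back. Kidney tubules, above all the proximal tubule and the thick ascending limb, are rich in mitochondria because sodium reabsorption consumes ATP.

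Levels are given as log2 of the processed spot signal over the array's 75th percentile, so that 0 is the 75th percentile, and a log2 fold change is the TBBC mean minus the vehicle mean on that scale. On each array 67.1% to 70.9% of probes lay well above background and no spot was saturated; the number of arrays limits the precision. Vehicle arrays correlated with each other at Pearson's r = 0.992, taken across transcripts, TBBC arrays at 0.983 to 0.985, and arrays of different groups at 0.975 to 0.985. The vehicle arrays and TBBC 1 shared a slide and a scan day, while TBBC 2 and TBBC 3 were on a second slide scanned on another day. Markers of the proximal tubule (8 of 8 tested) and of the thick ascending limb (5 of 5) were well above background on all 6 arrays. Probes measure RNA from a whole piece of cortex, so fewer cells of a type and less RNA per cell cannot be told apart.

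Transcripts of the oxidative phosphorylation subunits were slightly lower in the TBBC rats across all complexes, and the difference was small for nearly every gene. Of 77 members tested, 70 had a TBBC mean below the vehicle mean and 7 above it, against 53.5% below over all 32962 transcripts tested. The median log2 fold change of the members was -0.21, which puts the median TBBC level at 86.5% of the vehicle level, and it was -0.02 over all transcripts. In 49 of the 77 (63.6%) every TBBC array lay below every vehicle array, where 15.2% of all transcripts did so, and in 1 member every TBBC array lay above, where 13.1% of transcripts did. The members were brighter than the transcripts tested (median vehicle level 6.42 against -1.17) and varied less among TBBC rats (median SD 0.083 against 0.228). The part of this in the shares was not tested. The lowest difference was that of Cycs, at -0.71, and the highest was that of Atp5if1, the inhibitor of the ATP synthase, at 0.37; Ndufa10, Ndufa4, Ndufv3 and Atp5f1b differed by more than Atp5if1, downward.

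No single member passed the test. With limma and Benjamini-Hochberg adjustment over all transcripts, 0 of 77 were past an adjusted p of 0.05, where 0.531% of all transcripts were, and the smallest adjusted p among the members was 0.0857 (Cycs). At an unadjusted p under 0.05 there were 24 members lower (31.2%) and 1 higher, beside 10.4% and 9.54% of all transcripts. With a trended, robust variance model 4 members passed, all lower (Cycs, Ndufa4, Ndufv3 and Atp5f1b), beside 1087 of all 32962 transcripts. With normexp background correction 2 passed (Cycs and Atp5f1b), beside 761 of 32962. All 77 also passed a filter that asks for signal well above background on all 6 arrays, so that none entered through 1 group alone. The members come from the same 6 RNA samples, so their number does not add replicates.

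**Figure D1:**
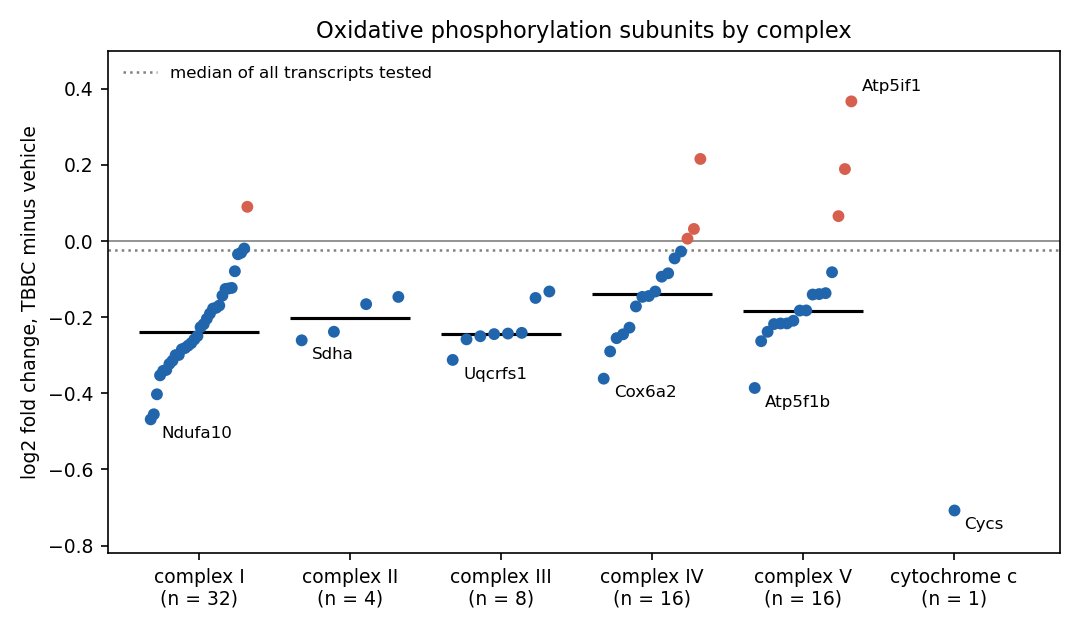
Log2 fold change (TBBC minus vehicle, n = 3 rats each) of each of the 77 tested members, ordered within its complex; blue points are below 0 and red points above it, black bars are the complex medians and the dotted line is the median of all transcripts tested. Complex medians run from -0.24 (complexes I and III) to -0.14 (complex IV), Cycs lies lowest at -0.71 and Atp5if1 highest at 0.37.

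The promoters of the members were searched for the binding words of factors known from respiratory genes: nuclear respiratory factor 1 (NRF1; GCGCANGCG), the ETS family, which includes GABP (CCGGAAG), YY1 (AAGATGGCG), cAMP-responsive factors (CRE; TGACGTCA) and estrogen-related receptors (ERR; TCAAGGTCA), and for the antioxidant response element core (ARE; TGACNNNGC). Windows of 250 bases before the gene's start came from RefSeq (assembly GRCr8), and 68 of the 78 members had one; both strands were read. The NRF1 word was in 22.1% of member windows and in 5.09% of all 33469 windows; asking for a further C after it, as in its longer usual form, gave 14.7% and 3.75%. The ETS word was in 27.9% of member windows against 7.27% of all. The shares were 1.47% against 0.693% for YY1 (0.335% of all with a further G), 4.41% against 1.59% for CRE, 0 of 68 against 0.388% for ERR and 13.2% against 10.1% for ARE. In all, 31 members held the NRF1 or the ETS word and 3 of them (Atp5me, Atp5mg and Ndufa6) held both. The CRE and ARE words both begin with TGAC but differ after it, so that they cannot match from the same start. The median log2 fold change of members with and without a word was -0.18 and -0.22 for NRF1 (15 and 52 tested members; -0.23 and -0.22 with the longer form), -0.22 and -0.22 for ETS (19 and 48) and -0.25 and -0.20 for ARE (9 and 58).

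The windows of 4 members are printed, the lowest and the highest by fold change (Cycs and Atp5if1) and a pair of complex I members that hold an NRF1 or an ETS word, 5′ to 3′ on the gene's own strand, with matches to a searched word in capitals: Cycs (chr4:80984768-80985017, minus strand, 1 NRF1 and 1 ARE word), Ndufv3 (chr20:9613536-9613785, plus strand, 1 NRF1 word), the core subunit Ndufs8 (chr1:210573699-210573948, minus strand, 1 ETS word) and Atp5if1 (chr5:150026678-150026927, minus strand, no match). The Ndufv3 match ends 30 bases before the gene's start and the Ndufs8 match 5 bases before it, while those of Cycs end 149 (NRF1) and 96 (ARE) bases before it. With the further C asked for, Ndufv3 kept its NRF1 match and Cycs did not. A match is a description of letters in the window, not a bound site.
Cycs: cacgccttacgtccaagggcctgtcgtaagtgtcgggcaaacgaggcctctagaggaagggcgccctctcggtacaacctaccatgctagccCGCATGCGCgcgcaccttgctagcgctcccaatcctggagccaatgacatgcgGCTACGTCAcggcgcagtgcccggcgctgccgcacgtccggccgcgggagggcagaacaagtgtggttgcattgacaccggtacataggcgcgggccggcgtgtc
Ndufv3: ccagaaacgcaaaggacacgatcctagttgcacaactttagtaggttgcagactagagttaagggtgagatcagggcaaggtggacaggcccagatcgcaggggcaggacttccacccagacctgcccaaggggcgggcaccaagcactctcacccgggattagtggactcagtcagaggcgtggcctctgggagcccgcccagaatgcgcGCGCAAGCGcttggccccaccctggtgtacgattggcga
Ndufs8: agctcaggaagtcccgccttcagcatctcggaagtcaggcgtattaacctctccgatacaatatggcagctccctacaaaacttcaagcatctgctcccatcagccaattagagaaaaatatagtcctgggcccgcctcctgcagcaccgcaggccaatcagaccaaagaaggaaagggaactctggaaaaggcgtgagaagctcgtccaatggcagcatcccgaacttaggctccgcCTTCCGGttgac
Atp5if1: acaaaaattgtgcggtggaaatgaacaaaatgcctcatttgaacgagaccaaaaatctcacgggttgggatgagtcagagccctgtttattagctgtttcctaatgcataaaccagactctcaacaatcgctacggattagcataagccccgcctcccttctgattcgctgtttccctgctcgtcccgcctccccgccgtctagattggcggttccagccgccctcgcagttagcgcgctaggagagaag

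Cytochrome c, the soluble carrier between complexes III and IV, had the largest difference of all members. Cycs levels were 7.19, 7.21 and 7.34 in vehicle 1 to 3 and 6.67, 6.67 and 6.28 in TBBC 1 to 3. The groups did not overlap, and TBBC 3 was the lowest. The log2 fold change was -0.71 ± 0.14 (SE; limma, adjusted p = 0.0857), or 61.2% of the vehicle level. All 5 Cycs probes were lower in TBBC, by -0.78 to -0.56.

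For the counts of each complex, the share of all transcripts below the vehicle mean was 53.5%. In 15.2% of all transcripts every TBBC array lay below every vehicle array. Complex I had 31 of 32 members below the vehicle mean, a median of -0.24, 25 members whose groups did not overlap and 0 past the test. Its 7 core subunits, which carry the flavin, the iron-sulfur clusters and the quinone site, were all lower, with a median of -0.28 and 6 without overlap. The other 25 members had a median of -0.22. Apart from Ndufa4, which is now counted with complex IV, they are accessory subunits that build around the core. Among the core subunits, Ndufs8, an iron-sulfur protein, was at 3.90, 3.79 and 3.78 in the vehicle rats and at 3.51, 3.47 and 3.42 in the TBBC rats (-0.35 ± 0.10, SE; limma, adjusted p = 0.136). Ndufs1, the largest iron-sulfur subunit, stood at 5.27, 5.12 and 5.25 against 4.88, 4.92 and 4.81 (-0.34 ± 0.10, adjusted p = 0.152 in limma). Ndufv1, which binds NADH and the flavin, was at 6.42, 6.38 and 6.39 against 6.13, 6.12 and 6.09 (-0.28 ± 0.09, adjusted p = 0.171 in limma). In these 3 genes the arrays of each group lay close together and the groups were apart.

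Of the accessory subunits, Ndufa10 had the lowest fold change, at -0.47 ± 0.18 (SE; limma, adjusted p = 0.219), with 4.62, 4.01 and 4.34 in vehicle and 4.01, 3.79 and 3.77 in TBBC. Vehicle 2 and TBBC 1 nearly met there, and the near-identical gene Ndufa10l1 (-0.22 ± 0.11) may share its probe signal. Ndufa4, first counted with complex I and now with complex IV, was at 7.02, 6.84 and 6.89 against 6.49, 6.41 and 6.48 (-0.46 ± 0.10, adjusted p = 0.0984 in limma). Ndufv3, a small subunit of the NADH-oxidising module, was at 6.91, 6.84 and 6.80 against 6.47, 6.47 and 6.40 (-0.40 ± 0.10, adjusted p = 0.109 in limma). Both were lower in every TBBC rat than in any vehicle rat. The single complex I member above the vehicle mean was Ndufa5, an accessory subunit of the arm that binds the quinone. Its levels were 7.07, 7.01 and 6.92 in vehicle and 7.11, 7.16 and 6.99 in TBBC (0.09 ± 0.10, adjusted p = 0.681 in limma), the groups overlapped, and with quantile scaling the sign turned, to -0.02.

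The 4 subunits of complex II, succinate dehydrogenase, which also works in the TCA cycle, were all below the vehicle mean, with a median of -0.20, and 0 of 4 passed. Sdha, the flavoprotein, was at 7.11, 6.87 and 7.04 in vehicle and 6.77, 6.70 and 6.77 in TBBC (-0.26 ± 0.11, SE; limma, adjusted p = 0.256). Sdhc, a membrane anchor, was at 5.37, 5.29 and 5.30 against 4.94, 5.23 and 5.07 (-0.24 ± 0.11, adjusted p = 0.308 in limma). In these genes the groups did not overlap. Sdhb, the iron-sulfur protein, had a fold change of -0.15 ± 0.10, and Sdhd, the other anchor, -0.17 ± 0.12; in both, 1 TBBC array, that of TBBC 2, lay within the vehicle range, and without TBBC 1 Sdhd was at -0.092.

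Complex III had all 8 members below the vehicle mean, with a median of -0.24, 6 without overlap and 0 past the test. Uqcrfs1, the Rieske iron-sulfur protein, was lowest, at 6.07, 5.99 and 5.96 in vehicle and 5.58, 5.89 and 5.62 in TBBC (-0.31 ± 0.12, SE; limma, adjusted p = 0.228). TBBC 2 was closest to the vehicle rats. The small subunits Uqcr11 (-0.25 ± 0.10) and Uqcr10 (-0.24 ± 0.11) also did not overlap. Uqcrh, the hinge protein at the cytochrome c side, had the smallest difference, with 6.62, 6.50 and 6.39 against 6.30, 6.40 and 6.42 (-0.13 ± 0.11), overlapped, and was at -0.074 without vehicle 1. The fold changes of the complex spanned only -0.31 to -0.13.

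Complex IV, cytochrome c oxidase, had the smallest median, -0.14, with 13 of 16 tested members lower, 6 without overlap and 0 past the test. It has several tissue isoforms. Without those and a transcribed pseudogene, Cox6c-ps1 (0.01 ± 0.10), all 11 remaining members were lower, with a median of -0.15. Cox7a2 was at 6.53, 6.34 and 6.33 in vehicle and 6.11, 6.11 and 6.11 in TBBC (-0.29 ± 0.10, SE; limma, adjusted p = 0.200). Cox6c was at 7.72, 7.63 and 7.55 against 7.42, 7.38 and 7.37 (-0.24 ± 0.10, adjusted p = 0.243 in limma), and Cox6b1, which lies on the cytochrome c side, had a fold change of -0.26 ± 0.10 (adjusted p = 0.246 in limma). These are small structural subunits around the catalytic core, and none overlapped between groups. Cox4i1, the isoform found in most tissues, was at 7.97 ± 0.05 (SD, n = 3) in vehicle and at 7.81, 7.89 and 7.75 in TBBC (-0.15 ± 0.10, SE), with TBBC 2 just below the lowest vehicle rat.

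The isoforms known mainly from other tissues gave no common direction, and none passed the test. Cox4i2, known from lung, was at 2.68, 2.51 and 2.07 in vehicle and 1.97, 2.56 and 2.44 in TBBC (-0.09 ± 0.22, SE), and its sign turned without vehicle 1 (0.04) or TBBC 1 (0.08). Cox6a2, of heart and skeletal muscle, was at -0.36 ± 0.28, with a single high vehicle array (-1.15, -0.23 and -1.22 against -1.09, -1.36 and -1.23), without which it was at -0.043, and the mean of its probes turned the sign, to 0.61. Cox8b, also of heart and skeletal muscle, was at 0.22 ± 0.26, with 1 high TBBC array (-1.42, -1.51 and -1.20 against -1.65, -0.65 and -1.19), and was at -0.04 without TBBC 2 and at -0.27 within the shared slide. Cox6b2, known from testis, was at 0.03 ± 0.12, and its sign turned in 5 of the 20 settings, down to -0.20 as the mean of its probes. Cox8c, the testis isoform of subunit VIII, was the 1 member that was not tested, since it was not well above background on any of the 6 arrays. Over the tested isoforms 2 were lower and 2 higher.

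Complex V had 13 of 16 members below the vehicle mean, a median of -0.18 and 0 past the test, and it held the clearest exceptions. The 5 subunits of the catalytic F1 head were all lower (median -0.21, 4 without overlap), as were the 4 small membrane subunits tested (median -0.22, 4 without overlap). The 4 subunits of the peripheral stalk were also lower (median -0.16), with 1 without overlap, not far from the 15.2% of all transcripts. Atp5f1b, the catalytic beta subunit, was at 6.20, 6.21 and 6.11 in vehicle and 5.77, 5.82 and 5.77 in TBBC (-0.39 ± 0.09, SE; limma, adjusted p = 0.114). Atp5mf, a small membrane subunit, was at 7.99 to 8.01 in vehicle against 7.75, 7.82 and 7.65 (-0.26 ± 0.10, adjusted p = 0.214 in limma). Both were lower in each TBBC rat than in any vehicle rat. Atp5f1a, the alpha subunit beside it, was at 8.97, 8.89 and 8.63 against 8.38, 8.87 and 8.81 (-0.14 ± 0.17), with TBBC 1 low and the other arrays overlapping, and it was at 0.01 without TBBC 1.

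The inhibitor and the c-ring went the other way. Atp5if1 encodes the inhibitory factor that binds the F1 head and limits ATP hydrolysis when the proton gradient falls. Its levels were 6.07, 6.11 and 6.15 in vehicle and 6.47, 6.58 and 6.38 in TBBC, so that every TBBC array was above every vehicle array. The log2 fold change was 0.37 ± 0.10 (SE; limma, adjusted p = 0.139), or 1.29-fold, and it did not pass. Both tested genes of the membrane rotor ring, Atp5mc1 (0.19 ± 0.14) and Atp5mc2 (0.07 ± 0.12), which encode the same mature subunit c, had TBBC means above the vehicle mean, and their groups overlapped. Atp5mc1 was at 7.75, 7.63 and 7.57 in vehicle and 8.06, 7.85 and 7.61 in TBBC, with TBBC 3 inside the vehicle range. Its other probe gave the same difference (0.19), whereas both further probes of Atp5mc2 were below 0 (-0.05 and -0.07), and Atp5mc2 turned below 0 in 4 of 20 settings, to -0.03 with quantile scaling and -0.07 with normexp correction among them. Atp5if1 and Atp5mc1 were the members with a TBBC mean above the vehicle mean in all 20 settings run, the reported one included, though some settings cannot change a fold change. The size for Atp5mc1 varied, from 0.061 with quantile scaling and 0.079 without TBBC 1 to 0.41 with a slide term, where TBBC 1 alone sets the difference.

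**Figure D2:**
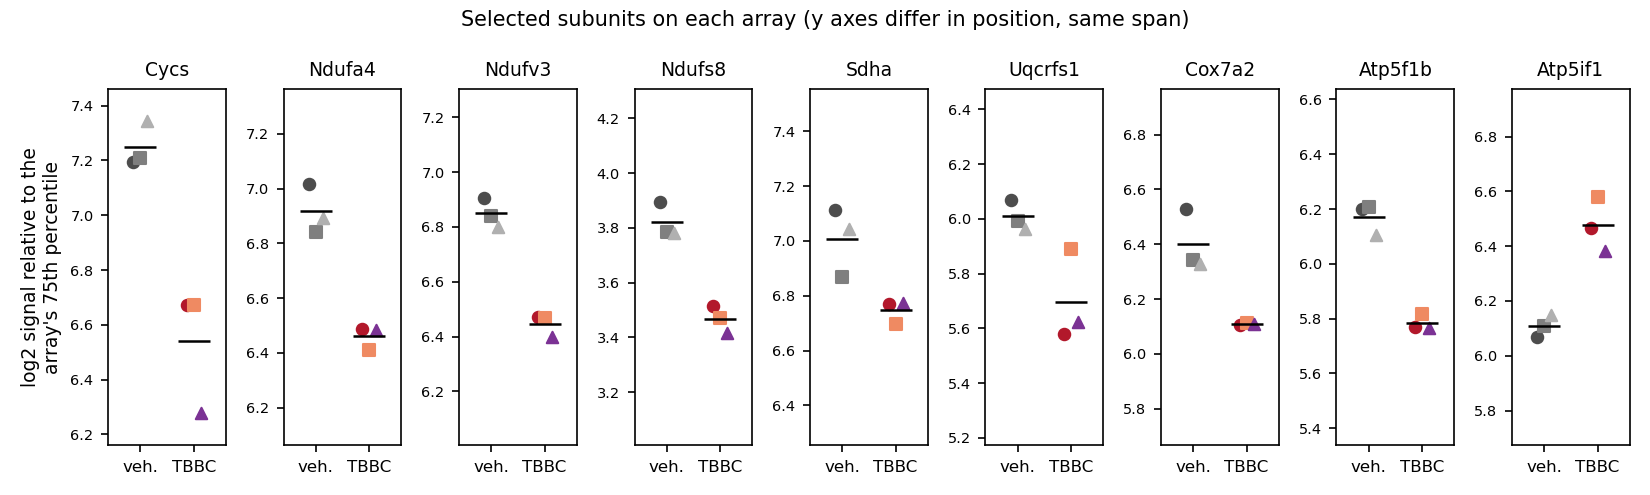
Levels (log2 signal relative to the array's 75th percentile) of 9 subunits on each of the 6 arrays; grey points are vehicle rats, coloured points TBBC rats (circle, square and triangle for replicates 1, 2 and 3) and bars the group means. In each panel the groups do not overlap; Atp5if1 is the panel in which TBBC lies above vehicle, and TBBC 3 is the lowest point for Cycs at 6.28.

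The members were lower in each TBBC rat, but the rats differed in which complex was lowest. The median difference of the 77 members from the vehicle mean was -0.21 in TBBC 1, -0.15 in TBBC 2 and -0.23 in TBBC 3, and it was 0.07, -0.02 and -0.05 in vehicle 1 to 3. Complex I was lowest in TBBC 3, with medians of -0.17, -0.20 and -0.30 in TBBC 1 to 3, and 21 of its 32 members had their lowest value there. Complex III was lowest in TBBC 1, with -0.30, -0.13 and -0.21, and 6 of its 8 members were lowest there. Medians were -0.28, -0.08 and -0.22 for complex II, -0.16, -0.07 and -0.19 for complex IV and -0.20, -0.15 and -0.16 for complex V. Thus complexes II to V were closest to vehicle in TBBC 2, and complex I was closest in TBBC 1. TBBC 2 was also the array with the lowest share of probes well above background, 67.1%; its part in these values was not tested.

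**Figure D3:**
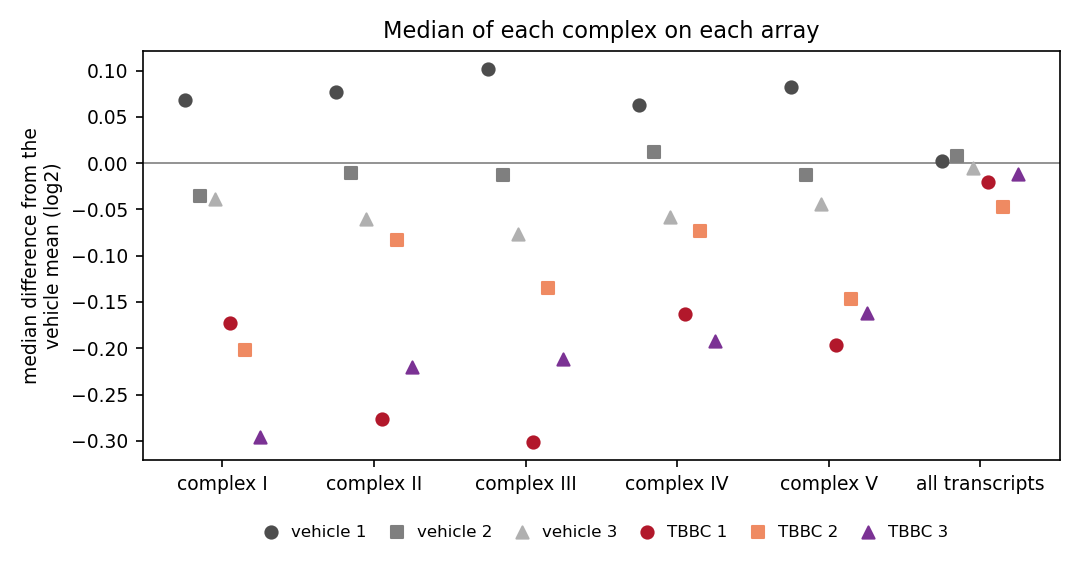
Median over the tested members of each complex of the difference from the vehicle mean (log2), shown for each of the 6 arrays (grey, vehicle; coloured, TBBC), with all transcripts tested at the right. For each complex the 3 TBBC medians lie below the 3 vehicle medians, and vehicle 1 is the highest; the TBBC medians of complex I run from -0.30 to -0.17 and those of complex IV from -0.19 to -0.07.

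The vehicle group was not uniform either. Vehicle 1 was the highest vehicle array for 65 of the 77 members, and without it the median of the members was -0.16 and 66 of 77 were lower. Within the slide that held both groups (3 vehicle arrays and TBBC 1) 71 of 77 members were lower, with a median of -0.21, and medians of -0.17, -0.28, -0.30, -0.16 and -0.20 for complexes I to V. There Cycs was at -0.58 and Atp5if1 at 0.36. That fit takes its spread from the vehicle arrays and assumes that the lone TBBC array varies like them.

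Different probes of a gene mostly gave the same direction. Of 40 members with more than 1 tested probe, the 60 other probes had the sign of the brightest in 53 cases and the opposite sign in 7, and the median difference over them was -0.23. The opposite signs were those of Atp5mc2 (2 probes), Cox6a2 (2), Cox6b2 (1), Cox7a2l (1) and Ndufv3 (1). Of these, only Ndufv3 belonged to the members with the clearest differences; 2 of its other probes were lower still, at -0.51 and -0.61, and its dimmest was at 0.07. RefSeq holds many processed copies of these genes, and probes may also read such copies, which the accessions do not show.

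Lists of other energy genes, written with earlier results of these data known, were set beside the subunits, and 0 members of any of them passed the test. Genes of the TCA cycle and pyruvate dehydrogenase, which feed the chain with NADH and succinate, had 16 of 17 below the vehicle mean and a median of -0.20, close to that of the subunits. Pdhb, the beta subunit of pyruvate dehydrogenase, was at 4.07, 3.99 and 3.98 in vehicle and 3.60, 3.50 and 3.50 in TBBC (-0.48 ± 0.10, SE; limma, adjusted p = 0.0857), and Idh3b, of the NAD-linked isocitrate dehydrogenase, was at -0.38 ± 0.10. In contrast, the 40 tested assembly factors, which help to build the complexes and are not part of them, had a median of -0.02, with 23 lower and 17 higher. They included Coa5 (-0.52 ± 0.13), linked to complex IV assembly, and Bcs1l (0.55 ± 0.20), which inserts the Rieske protein into complex III. Regulators of mitochondrial biogenesis and mitochondrial DNA had a median of -0.03, with 13 of 20 lower, at a median vehicle level of 1.18. The part of such level differences in the list medians was not tested. Ppargc1a, the coactivator PGC-1 alpha, was at -0.81 ± 0.04 in vehicle and -0.70 ± 0.28 in TBBC (SD, n = 3 each; difference 0.11 ± 0.16, SE), without a common direction and with -0.19 within the shared slide. Tfam, which packages mitochondrial DNA, was at 0.16 ± 0.11, Tfb2m, a mitochondrial transcription factor, at -0.26 ± 0.11, and Pprc1, a coactivator related to PGC-1, at 0.78 ± 0.34. Without TBBC 2 Pprc1 was at 0.40, and without TBBC 1 Tfam was at 0.088.

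Genes that supply the prosthetic groups of the chain were mixed. Iron-sulfur cluster assembly had 8 of 13 lower and a median of -0.11. Nfs1, the cysteine desulfurase that provides the sulfur, was at 4.87, 4.86 and 4.91 in vehicle and 4.41, 4.41 and 4.44 in TBBC (-0.46 ± 0.09, SE; limma, adjusted p = 0.0844), while the ferredoxin Fdx2 was at 0.42 ± 0.14. Heme synthesis and attachment had 5 of 9 lower and a median of -0.08, with Alas1, its rate-limiting enzyme in most tissues, at 0.68 ± 0.20 and Alad, the following enzyme, at -0.40 ± 0.11. Glycolysis had 8 of 15 lower and a median of -0.02, at a median vehicle level of 5.48. Hk2, a hexokinase, was at 0.81 ± 0.14 (limma, adjusted p = 0.0677). Its signal was dim, at a log2 level of -4.79 in vehicle. Its fold change ran from 0.45 to 0.83 over the settings other than leaving 1 array out. Ldhb, the lactate dehydrogenase subunit of oxidative tissue, was at -0.34 ± 0.10. In Hk2 and in Ldhb the groups did not overlap.

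**Figure D4:**
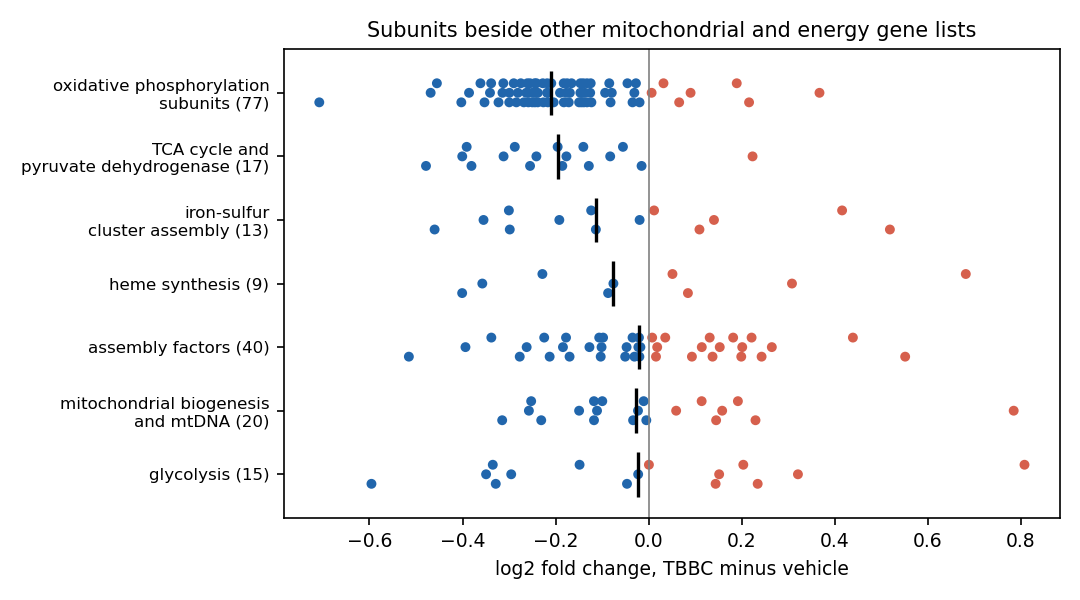
Log2 fold change (TBBC minus vehicle) of each tested gene, by list, with the number of genes in brackets; blue points are below 0, red points above it and black bars are the list medians. Medians are -0.21 for the subunits and -0.20 for the TCA cycle list, against -0.02 for assembly factors, -0.03 for biogenesis regulators and -0.02 for glycolysis.

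Markers of several cell types, mitochondria-rich tubule segments among them, had TBBC means below the vehicle mean in the same arrays. The summed level of 8 proximal tubule markers, in multiples of the array's 75th percentile, was 1311 to 1396 in vehicle and 1055 to 1255 in TBBC (7 of 8 lower, 0 past the test), and that of 5 thick ascending limb markers was 383 to 438 against 137 to 340 (5 of 5 lower, 0 past the test). Most of the latter sum was Umod, at a log2 level of 8.40 in vehicle, where Egf, the next, was at 5.36. In Slc12a1 and Cldn16 the groups overlapped. Among the proximal tubule markers the groups were apart only in Lrp2 and Aqp1. Podocyte markers were lower in 5 of 5 cases (median -0.28), endothelial markers in 4 of 5 (median -0.27, summed level at most 34.6 in vehicle against 24.8 to 27.7 in TBBC, with no overlap) and distal tubule and collecting duct markers in 4 of 6 (median -0.22), where the proximal tubule median was -0.18; 0 of these passed the test. Slc34a1, a proximal phosphate transporter, was at -0.15 ± 0.14, and at -0.24 to -0.067 with 1 array left out. Umod, of the thick ascending limb, was at -0.91 ± 0.33, with 8.18, 6.81 and 7.47 in TBBC 1 to 3. It was at -0.22 with a slide term, where TBBC 1 alone sets the difference. The sum of 7 tubule injury markers was 36.8 to 37.3 in vehicle and 188 to 400.4 in TBBC, with all 7 means higher. Of the 7, 2 passed the test (Havcr1 and Spp1), where 0.531% of all transcripts did. Most of the TBBC sum was Spp1, at log2 levels of 7.23, 7.94 and 7.93 in TBBC 1 to 3. In Clu, Vcam1 and Krt18 the groups overlapped. Myeloid markers summed to 91.9 to 114 in vehicle and to 84.6, 99.3 and 197 in TBBC 1 to 3 (9 of 10 higher, 0 past the test). Most of that sum was Lyz2 (0.12 ± 0.33), and the leukocyte gene Ptprc was at 0.05 ± 0.33. Fibroblast markers were higher in 3 of 4 tested cases (median 0.27, 0 past the test). Summed skeletal muscle markers were below 0.22 of the 75th percentile on every array. The part of these shifts in the lower subunit levels was not tested.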

How the data were processed

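Groups came from the sample titles. The deposited scanner files hold a spot intensity for each probe. Their headers name Feature Extraction 10.7.1.1 as the software (the submitters' processing notes give 10.7), and its processed signal has background removed within each array, with no scaling between arrays. The authors' value table holds a linear ratio, the processed signal over about the array's 75th percentile, as set against the scanner values. Its column medians ran from 0.107 to 0.114.

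Control spots (1439 of 62976) were left out and accessions were matched to RefSeq genes (GRCr8), which named 28193 probes. From the deposited intensity, log2 of each signal over the 75th percentile of its array was taken. Between 0 and 9 probes an array carried outlier flags and were dropped there. A probe was tested if well above background on every array of at least 1 group; the brightest tested probe stood for a gene. Groups were compared with limma 3.58.1 in R 4.3.3, two-sided, with Benjamini-Hochberg adjustment over 32962 transcripts and a threshold of 0.05; errors are standard errors. The fit was run on simulated data with added changes larger than that of any member, so that run does not bear on changes of the members' size. Members and lists were chosen with earlier results of these data known. Named genes are fixed ones, the smallest p and the extremes of each complex, and the smallest p of each list. The NRF1 and YY1 words, and their longer forms, were settled after promoter results were seen.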

Additional observations from a re-analysis of the deposited data

How the results depend on the processing

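With 3 arrays per group, 19 alternatives were run (scaling, background correction, the authors' table, filters, probe choice, variance model, slide, replicate block, and each array left out). Over them 66 to 73 members were below the vehicle mean. Of the 77 tested members, 59 were lower and 2 higher in every setting, and 16 changed sign in at least 1. The settings are not separate checks. The variance model, the replicate block and the stricter filter leave the member fold changes as reported, and the slide term repeats the shared slide. The count of members past the threshold was 0, except for 2 with normexp correction and 4 with the trended, robust model. In those settings 761 and 1087 of all 32962 transcripts passed. Quantile scaling moved the medians to -0.28 for all members, -0.31 for complex I, -0.24 for complex IV and -0.27 for complex V, and normexp put complex V at -0.21. Complex I was at -0.17 both with a slide term and on the shared slide alone. These are 1 estimate, since the second slide held no vehicle array and TBBC 1 alone sets the difference. With 1 array left out the median of all members ran from -0.24 to -0.16, and that of complex V from -0.22 to -0.14. The cause of these shifts was not tested.

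Some fold changes turned sign, Cox6a2 (reported at -0.36) and Cox8b (0.22) among them. Cox8b and Ppargc1a were at -0.27 and -0.19 with a slide term and on the shared slide alone, which is the same estimate from TBBC 1. Ptprc was at -0.28 in both and at -0.0045 with slide as a random block. Ndufa5 was at -0.018 with quantile scaling and Cox6a2 at 0.61 as the mean of its probes. Leaving out 1 array gave -0.27 to 0.083 for Cox4i2, -0.042 to 0.46 for Cox8b, -0.24 to 0.013 for Atp5f1a, -0.014 to 0.26 for Ppargc1a and -0.32 to 0.26 for Ptprc. The cause was not tested. Same-numbered rats did not deviate together (r = -0.09, 0.03 and -0.07 across transcripts). With the replicate block 0 of all 32962 transcripts were called, so the 0 members called there say nothing about the members. That block leaves the member fold changes as reported, so 70 were again below the vehicle mean.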
